A study of Mus musculus with 8 samples.

Results

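The V segments of the immunoglobulin kappa light chain locus are described here, as transcripts counted in mouse cells labelled Pro-B Cell. Members were chosen by their counts: all genes on chromosome 6 with a name starting with Igkv, annotated as an immunoglobulin V gene, and with at least 10 counts in at least 4 of the 8 libraries. All 100 of 100 annotated segments met this, each with at least 10 counts in all 8 libraries, out of 55487 genes in the table. The threshold therefore removed none, and no segment lay just outside it. Just inside lay Igkv20-101-2, Igkv8-26 and Igkv5-37, with 21, 31 and 32 counts in the library that ranked the fourth by count. The 60 annotated kappa V pseudogenes were kept apart.

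The 4 libraries of one group carry the genotype label CD25_KO and the 4 of the other the label WT. CD25 is the interleukin-2 receptor alpha chain, encoded by Il2ra. The labels give no allele, strain, age or treatment, and do not say whether replicate libraries are from different mice, so a p-value measures only the spread between these libraries, which may be technical. Il2ra ran from 140.4 to 216.4 CPM (counts per 1000000 library counts, scaled by the trimmed mean of M values, TMM) in wild type and from 144.7 to 243.7 in the other group. Its log2 fold change was -0.09 ± 0.19 (SE; adjusted p = 0.849, edgeR quasi-likelihood test), so the second group is called labelled knockout throughout. Library totals ran from 43974037 to 57988772 counts.

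A kappa light chain gene is assembled in the precursor B cell. The RAG recombinase joins one V segment to one of the J segments, which lie between the V segments and the constant gene Igkc, and the chosen V segment then forms most of the variable domain, including the first and second antigen-binding loops and the start of the third. Segments that point the same way as the J segments are joined by deleting the DNA between them, and segments that point the other way by inverting it. Unrearranged segments can also be transcribed, and in the textbook order of B cell development the heavy chain is rearranged at the pro-B stage and kappa mainly in small pre-B cells. In these counts a transcript of a rearranged gene and a germline transcript of the same segment cannot be told apart, and neither can fewer cells using a segment and less RNA per cell.

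What sets one V segment apart at the joining site is its 3′ end, which encodes the start of the third antigen-binding loop. The last 45 bases of the segments that carry the results below are therefore shown 5′ to 3′, from GENCODE M21 transcripts on GRCm38, with the codon of the conserved second cysteine in capitals. The strongest segments come first.
Igkv1-135 (chr6:67610464-67610508, plus strand): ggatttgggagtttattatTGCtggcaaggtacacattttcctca
Igkv8-16 (chr6:70386672-70386716, minus strand): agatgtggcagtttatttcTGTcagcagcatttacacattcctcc
Igkv19-93 (chr6:68736297-68736341, minus strand): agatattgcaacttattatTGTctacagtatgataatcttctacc
Igkv17-127 (chr6:67861615-67861659, plus strand): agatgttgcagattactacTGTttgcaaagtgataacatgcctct
Igkv17-121 (chr6:68037274-68037318, plus strand): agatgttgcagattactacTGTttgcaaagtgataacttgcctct
The next pair varied together between libraries and is nearly identical in sequence.
Igkv6-20 (chr6:70335841-70335885, minus strand): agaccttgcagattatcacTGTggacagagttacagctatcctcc
Igkv6-29 (chr6:70138462-70138506, minus strand): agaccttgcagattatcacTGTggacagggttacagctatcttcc
The last pair comes from family 8 and has the longest stretches after the cysteine codon.
Igkv8-18 (chr6:70356401-70356445, plus strand): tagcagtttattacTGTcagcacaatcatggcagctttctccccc
Igkv8-26 (chr6:70193753-70193797, plus strand): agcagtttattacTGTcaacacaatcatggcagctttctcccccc

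All 100 segments carried such a cysteine codon within their last 60 bases, written TGT in 64 and TGC in 36. In 67 segments 23 bases followed it. In 21 segments 25 bases followed it, and all 21 belonged to family 4. The longest stretches were 28 bases in Igkv8-18 and 29 in Igkv8-26, and these stood at 7.48 and 1.40 CPM per kb of exon, a scale on which segments of different length can be compared. For comparison the 67 segments with 23 bases had a median of 29.5 CPM per kb. The letters CCTCC ended 42 segments, none of family 4, with a median of 41.9 CPM per kb. The other 58 segments, 26 of them family 4, had a median of 17.3. These are descriptions of the segments in the same 8 libraries, and families share both sequence and position.

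The same 3′ end did not go with the same level. The family 4 segments Igkv4-72, Igkv4-71, Igkv4-68 and Igkv4-59, share 1 end letter for letter, shown here from Igkv4-59 (chr6:69438218-69438262, minus strand).
Igkv4-72, Igkv4-71, Igkv4-68 and Igkv4-59: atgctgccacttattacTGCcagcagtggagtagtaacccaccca
Their levels over the 8 libraries were 22.9 ± 3.75 (SD), 9.69 ± 1.56, 59.7 ± 7.38 and 77.1 ± 11.96 CPM per kb, a 7.96-fold range. In the other 5 groups of segments with a shared end the members lay closer. Igkv13-85 and Igkv13-84, which point in opposite directions, had 43.6 ± 8.72 and 41.6 ± 7.88 CPM per kb, and Igkv5-45 and Igkv5-43 had 45.5 ± 8.53 and 46.6 ± 9.34. Over their transcripts Igkv13-85 and Igkv13-84 are 96.3% identical and Igkv5-45 and Igkv5-43 are 98.4% identical. Fragments that align to several segments were counted for each, so the likeness within each pair is uncertain.

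All 100 segments had counts in all 8 libraries, at very unequal levels. Counts ran from 12 to 4999 in a library, and mean levels from 1.40 CPM per kb for Igkv8-26 to 219.8 for Igkv1-135, a 157-fold range with a median of 24.4. Igkv8-26 had only 12 to 39 counts a library and is 97.8% identical to Igkv8-18 over its transcript, so with fragments counted at every alignment the low end of this range is uncertain. There were 6 segments at 100 CPM per kb or more, 25 at 50 or more, and 22 below 10. The 20 most counted segments held 50% of all kappa V counts and the 50 least counted held 16.6%. The effective number of segments, which would be 100 if all were used equally, was 65.8 ± 0.741 in wild type and 65.9 ± 0.303 in labelled knockout (SD, n = 4 each).

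Igkv1-135 (chromosome 6, 67609713 to 67610508, plus strand) had the highest count in all 8 libraries. It stood at 80.44, 85.46, 99.33 and 80.21 CPM in wild type and 85.62, 91.63, 96.26 and 73.92 CPM in labelled knockout. These ranges overlap, and its share of the kappa V counts stayed between 6.03% and 6.74%. It lies 3112 kb from Igkj1, second from the far end of the locus.

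Igkv8-16 (70386672 to 70387252, minus strand) came next and lies 335 kb from Igkj1, near the other end. Its libraries held 60.07, 67.85, 89.82 and 68.81 CPM in wild type and 64.71, 70.83, 83.55 and 63.50 CPM in labelled knockout. Library 3 was highest in both groups. Igkv19-93, the only member of its family, held 39.55, 49.60, 64.54 and 46.95 CPM in wild type and 39.74, 51.96, 51.75 and 44.11 CPM in labelled knockout. Per kb these 3 segments had 219.8 ± 21.9, 187.7 ± 27.2 and 133.7 ± 22.3 CPM (SD, n = 8), so the ranges of mean ± SD of Igkv1-135 and Igkv8-16 overlap, although Igkv1-135 had more counts in every library.

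The other strong segments lay close together. Igkv17-127 had 115.3 ± 21.2, Igkv1-117 had 108.6 ± 10.7 and Igkv17-121 had 105.2 ± 14.3 CPM per kb (SD, n = 8). Their ranges of mean ± SD overlap. Within libraries, Igkv17-127 was above Igkv17-121 in all but labelled knockout library 4 (84.15 against 87.29 CPM per kb). Igkv6-15, Igkv6-17, Igkv4-59 and Igkv1-110 followed with 85.4 ± 11.95, 77.6 ± 12.2, 77.1 ± 11.96 and 76.4 ± 7.71 CPM per kb, again with overlapping ranges. Together these 10 segments held 33.2 ± 0.716% of the kappa V counts in wild type and 33.7 ± 0.353% in labelled knockout. All 10 were the top 10 in 7 libraries, and in labelled knockout library 1 the count included 9 of them, with Igkv6-20 in place of Igkv4-59.

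**Figure D1:**
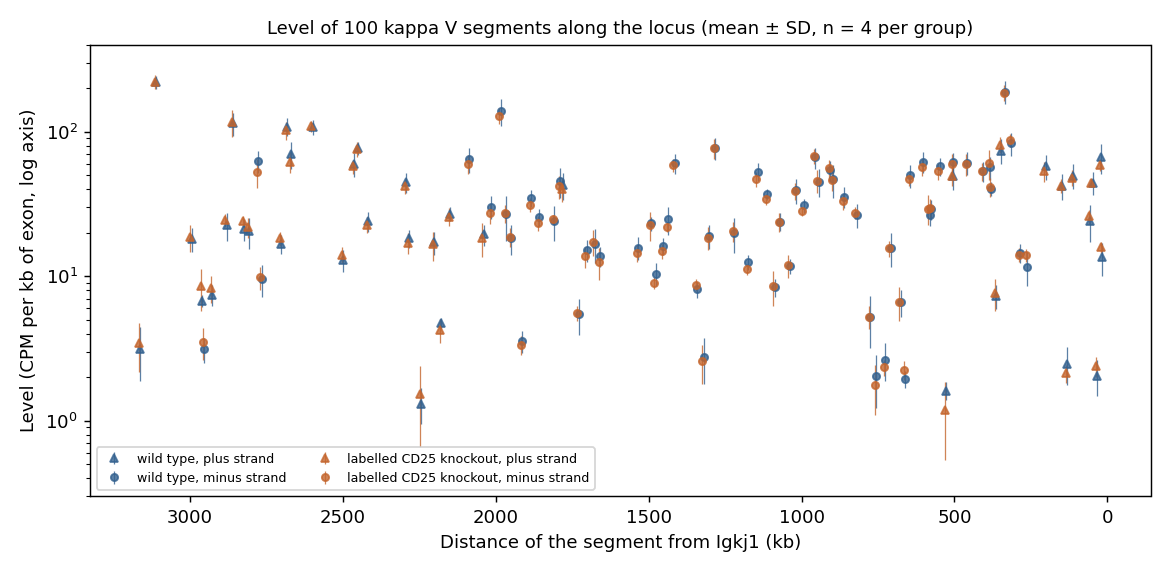
Level of each of the 100 kappa V segments (CPM per kb of exon, log axis, mean ± SD of 4 libraries per group) against its distance from Igkj1 in kb, with triangles for segments on the plus strand and circles for the minus strand. Strong and weak segments alternate along the whole locus, from Igkv1-135 at 219.8 to Igkv8-26 at 1.40, and the points of both groups nearly coincide.

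The locus was read from end to end. The segments were divided into 4 blocks of 25. The block farthest from the J segments (2180 to 3166 kb away, 22 plus-strand and 3 minus-strand segments) held 29.9 ± 0.708% of the kappa V counts in wild type and 29.9 ± 0.673% in labelled knockout. The next block held 19.0 ± 0.964% and 18.4 ± 0.895%. The third block, all 25 on the minus strand, held 20.5 ± 0.261% and 20.4 ± 0.121%. The block nearest to the J segments (18.4 to 583 kb, 13 plus and 12 minus) held 30.6 ± 1.11% and 31.3 ± 1.14%, and its segments had the highest median level, 44.3 CPM per kb against 21.1 to 27.0 in the others. Both ends of the locus thus held a larger share than the middle in each group. The median segment of the farthest block was not stronger, at 21.14 CPM per kb against 22.85 and 26.97 in the middle blocks. In each block the ranges of the groups overlap.

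Orientation gave a similar picture. The 38 plus-strand segments, which point the same way as Igkc, held 42.0 ± 0.591% (wild type) and 42.5 ± 0.709% (labelled knockout) of the counts, with overlapping ranges from 41.5% to 43.1% over all libraries. Their median level was 23.4 CPM per kb and that of the 62 minus-strand segments was 25.7.

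At the ends of the array, strong and weak segments are neighbours. Igkv3-1 and Igkv3-2 lie nearest to the J segments, 18.4 and 23.5 kb from Igkj1, and had 14.7 ± 2.75 and 62.7 ± 11.3 CPM per kb. At the far end Igkv2-137 had 3.31 ± 1.19 and Igkv1-135 had 219.8 ± 21.9 CPM per kb.

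By family, the largest was family 4, with 26 segments all on the minus strand. Its share was 16.0 ± 0.486% in wild type and 15.8 ± 0.311% in labelled knockout. Families 1 and 8, with 10 segments each, held 14.5 ± 0.715% and 14.03 ± 0.288% in wild type and 14.7 ± 0.335% and 13.9 ± 0.578% in labelled knockout. Family 6, with 9 segments, held 11.6 ± 0.781% and 12.3 ± 1.08%, and family 3, with 9 segments all on the plus strand, 8.15 ± 0.622% and 8.12 ± 0.393%. Family 17 had 2 segments, Igkv17-127 and Igkv17-121, and these held 5.93 ± 0.26% and 5.92 ± 0.465%. For each family named here the ranges of the groups overlap.

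Summed over all 100 segments, the unscaled CPM, without TMM, in wild type libraries 1 to 4 was 1216, 1409, 1612 and 1144. In labelled knockout libraries 1 to 4 it was 1299, 1398, 1485 and 1139. The means were 1345 ± 210 and 1330 ± 148 (SD, n = 4 each), and the groups overlap. Library 3 was highest in each group and library 4 lowest. Wild type library 3 held the highest CPM of 66 segments and labelled knockout library 3 that of 17, while the lowest CPM fell in labelled knockout library 4 for 38 segments and in wild type library 4 for 26.

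Igkc, the constant exon that every spliced kappa transcript shares, was likewise highest in library 3 of each group and next highest in library 2. On the same unscaled CPM it stood at 2775, 3308, 3854 and 2822 in wild type and 3031, 3161, 3546 and 2860 in labelled knockout. For each Igkc count there were 0.438, 0.426, 0.418 and 0.405 kappa V counts in wild type and 0.428, 0.442, 0.419 and 0.398 in labelled knockout. The mean ratio was 0.422 ± 0.0138 and 0.422 ± 0.0185 (SD, n = 4 each), so it varied far less between libraries than the level itself did. The 60 pseudogenes summed to an unscaled CPM of 28.7 to 38.5 over the 8 libraries, with means of 34.1 ± 4.97 in wild type and 34.6 ± 2.73 in labelled knockout.

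**Figure D2:**
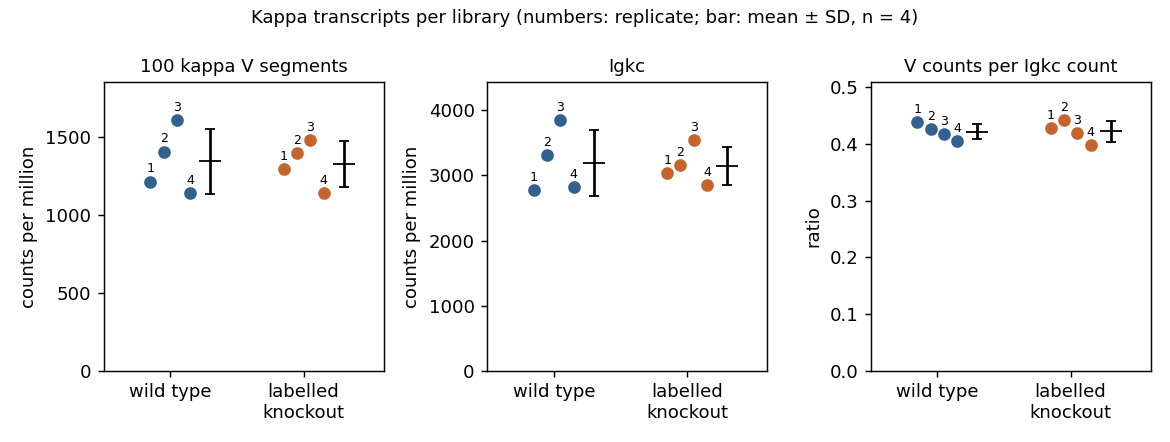
Unscaled CPM of the 100 kappa V segments (left), of Igkc (middle) and the number of kappa V counts per Igkc count (right) in each of 4 wild type and 4 labelled knockout libraries, with the replicate number above each point and mean ± SD at the side. The kappa V totals lie between 1139 and 1612 with overlapping groups, and the ratios lie between 0.398 and 0.442.

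The comparison of labelled knockout with wild type called none of the segments. Of 18884 genes tested over the whole table, edgeR's quasi-likelihood test called 0 at a Benjamini-Hochberg adjusted p under 0.05 (0.0%), and 0 of the 100 segments, of which all passed the count filter. The smallest adjusted p was 0.555 among the segments and 0.391 among all genes. At an unadjusted p under 0.05 there were 0 segments, against 2388 genes (12.6% of those tested, 5.53% with higher and 7.11% with lower values in labelled knockout). DESeq2 and limma-voom likewise called 0 segments, with 0 at an unadjusted p under 0.05. No segment had CPM that did not overlap between the groups, against 6.79% of all genes (2.62% higher and 4.17% lower).

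Fold changes of the segments were small, from -0.44 to 0.33 on the log2 scale, with a median of -0.02 beside 0.00 for all genes. There were 43 segments with a positive and 57 with a negative value, and this split was 18 and 82 with upper quartile factors, 44 and 56 with DESeq2 size factors and 42 and 58 with receptor segments left out of the scaling. It was 11 and 89 with limma-voom, which also weights the libraries, and 56 and 44 with no count filter. Leaving out 1 library moved it between 20 and 80 (without wild type library 4) and 78 and 22 (without wild type library 3). No direction for the segments together can therefore be given.

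How large a difference the data allow can be read from the 95% intervals. In 79 of 100 segments the whole interval lay within 1.5-fold either way, and in 96 within 2-fold. Among all genes these shares were 30.5% and 58.4%. Among segments with a mean of at least 5 CPM 70 of 72 (97.2%) lay within 1.5-fold, against 52.7% of the 10296 genes at that level. For Igkv1-135 the log2 fold change was 0.01 ± 0.12 (SE), with an interval from -0.25 to 0.27, which allows at most 1.20-fold higher and 1.19-fold lower. The 4 segments whose interval reached beyond 2-fold were Igkv2-137, Igkv20-101-2, Igkv5-37 and Igkv8-26, each with a mean below 2 CPM. The coefficient of variation over the 8 libraries had a median of 16.4% for the segments and 25.1% for all genes. With at least 5 CPM these medians were 15.6% and 16.7%.

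**Figure D3:**
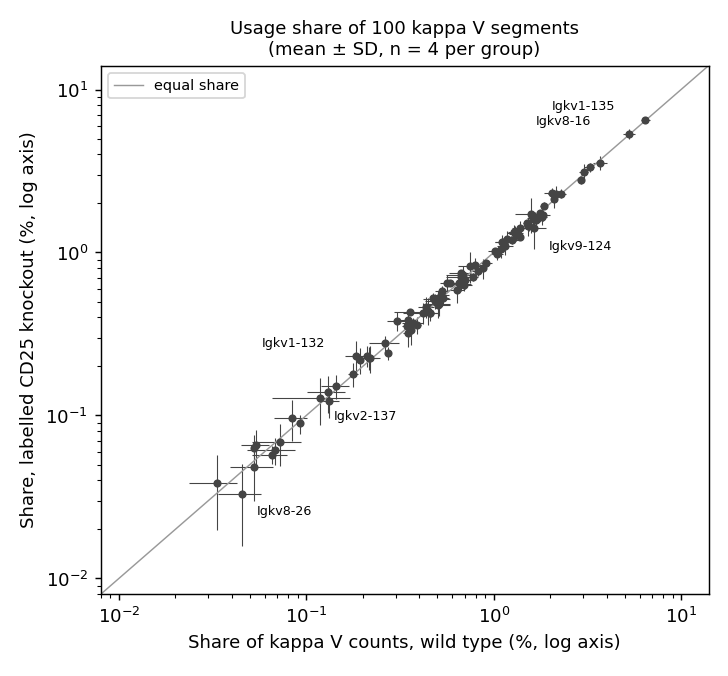
Share of the kappa V counts that fell to each of the 100 segments in wild type (horizontal, %, log axis) and in labelled knockout (vertical, %, log axis), mean ± SD of 4 libraries each, with the line of equal shares. The points follow the line from below 0.1% up to Igkv1-135 at 6.43% and 6.54%, with wider bars at the weak end.

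No segment passed the test, so those with the lowest unadjusted p are described by their values alone. On the higher side Igkv1-132 had 2.532, 2.557, 2.611 and 2.116 CPM in wild type and 2.516, 2.731, 4.568 and 2.523 CPM in labelled knockout. Its log2 fold change of 0.33 ± 0.24 (SE; adjusted p = 0.555, edgeR) was 0.08 without labelled knockout library 3, the only one far above the rest. Igkv6-13 held 3.63, 4.41, 5.56 and 3.05 CPM in wild type and 4.37, 4.86, 5.69 and 5.17 CPM in labelled knockout. Igkv3-1, the segment next to the J segments, held 3.70, 6.21, 5.62 and 3.93 CPM against 5.61, 6.18, 6.01 and 5.08 CPM. In both, wild type libraries 1 and 4 lay below the labelled knockout range, and the other two lay within or above it. Igkv14-126 and Igkv6-17 had log2 fold changes of 0.18 ± 0.16 and 0.14 ± 0.16.

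On the lower side Igkv9-124 (chromosome 6, 67942074 to 67942540, minus strand) had 18.15, 27.08, 22.92 and 20.04 CPM in wild type and 15.51, 24.05, 14.85 and 19.84 CPM in labelled knockout, a log2 fold change of -0.25 ± 0.19 (adjusted p = 0.579, edgeR). Labelled knockout libraries 1 and 3 lay below the wild type range and the other two inside it. Igkv4-71, one of the 4 segments with the shared 3′ end above, had 3.34, 3.58, 4.64 and 3.16 CPM in wild type and 3.03, 3.01, 3.65 and 3.03 CPM in labelled knockout. The values for Igkv4-57 and Igkv12-89 were -0.16 ± 0.15 and -0.15 ± 0.15 on the log2 scale. Igkv8-26, the weakest segment per kb, had 0.695, 0.617, 0.491 and 0.592 CPM in wild type and 0.577, 0.715, 0.240 and 0.234 CPM in labelled knockout, a log2 fold change of -0.44 ± 0.44.

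**Figure D4:**
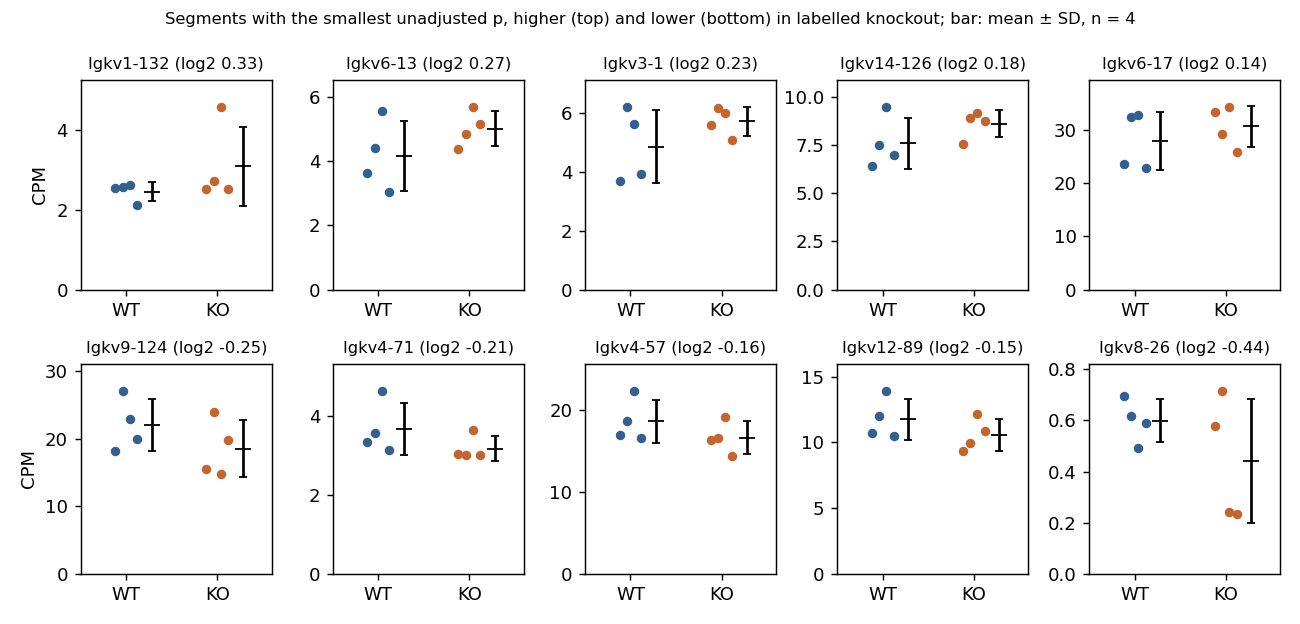
CPM in each library of the 5 segments with the smallest unadjusted p on the higher side (top row) and on the lower side (bottom row), wild type (WT) in blue and labelled knockout (KO) in orange, with mean ± SD of 4 libraries at the side and each vertical axis starting at 0. In every panel the ranges of the groups overlap, and for Igkv1-132 a single library at 4.568 CPM lies above the other 7.

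Usage also differed between libraries of the same group. The share of kappa V counts that would have to move from some segments to others to make 2 libraries alike was 4.18% to 5.30% between wild type libraries (median 4.56%, 6 pairs) and 4.11% to 6.17% between labelled knockout libraries (median 5.62%, 6 pairs). Between a library of one group and one of the other it was 3.90% to 7.41% (median 4.78%, 16 pairs). The pairs share libraries, and the ranges overlap. Every pair differed by more than the counting error of independent counts, with a chi-square per degree of freedom of 3.73 or more. Fragments were counted at every alignment, so counts of similar segments are not independent, and how far this raised the chi-square was not tested. The rank correlation across the 100 segments was 0.976 or more in each pair. Segments of 1 library share its cells and depth, so these values describe the libraries.

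This unevenness was spread over nearly all segments, and those named next were singled out after their values were seen. The chi-square per degree of freedom of a segment's share over the 8 libraries would be near 1 for counting error of independent counts alone. It had a median of 4.06, was above 10 in 11 segments and below 1 in 2. It was highest in Igkv6-20, with 47.4, and Igkv9-124, with 46.9. Igkv6-29, Igkv19-93 and Igkv17-127 followed close together, with 17.47, 17.46 and 17.38. Igkv6-20 took 1.72%, 1.91%, 1.28% and 1.42% of the kappa V counts in wild type and 2.35%, 1.52%, 1.43% and 1.61% in labelled knockout. For labelled knockout library 1 the 95% Wilson interval was 2.23% to 2.47%, which like all such intervals covers counting error only and takes fragments as independent. That library was highest and wild type library 3 lowest.

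Igkv6-29 took 0.776%, 0.874%, 0.645% and 0.684% in wild type and 1.10%, 0.750%, 0.754% and 0.710% in labelled knockout, again highest in labelled knockout library 1. The transcripts of Igkv6-20 and Igkv6-29 are 98.7% identical, and a fragment that aligns to both was counted for both, so their values are not independent of each other. Igkv9-124 took 1.51%, 1.97%, 1.39% and 1.69% in wild type and 1.19%, 1.72%, 1.01% and 1.73% in labelled knockout. Its lowest libraries were labelled knockout 3 and 1. Igkv17-121, with a larger share, took 2.58% to 3.07% over the 8 libraries.

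**Figure D5:**
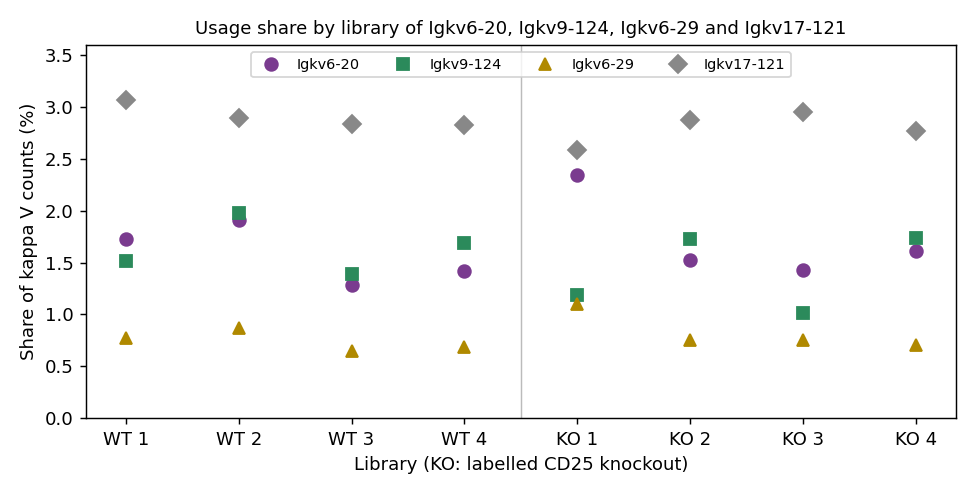
Share of the kappa V counts (%) in each of the 8 libraries for Igkv6-20 and Igkv9-124, whose shares had the highest chi-square per degree of freedom, for Igkv6-29, the near-identical copy of Igkv6-20, and for Igkv17-121. Igkv6-20 and Igkv6-29 are both highest in labelled knockout library 1, at 2.35% and 1.10%, and Igkv9-124 is lowest in labelled knockout library 3, at 1.01%.

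Among the weak segments the 5 with the largest ratio of the highest library to the median were Igkv20-101-2, Igkv1-132, Igkv12-38, Igkv5-37 and Igkv4-62. Igkv20-101-2 had 0.305 to 0.600 CPM in wild type and 0.962 CPM in labelled knockout library 3, against 0.351 to 0.385 in the others of that group. Igkv12-38 ran from 1.25 to 2.86 CPM, Igkv5-37 from 0.412 to 1.09 and Igkv4-62 from 0.582 to 1.41, each highest in wild type library 3, and for Igkv5-37 and Igkv4-62 other libraries lay close to it.

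Other genes of the light chain system were read from fixed lists. Of Igkc and the 5 kappa J segments 0 of 6 passed the test, with a median log2 fold change of 0.09, 4 positive and 2 negative, a split of 3 and 3 with upper quartile factors. Igkc had -0.03 ± 0.12. Among the J segments, which supply the end of the third loop, Igkj3 had 0.13 ± 0.22, Igkj4 0.10 ± 0.19, Igkj5 0.10 ± 0.21, Igkj2 0.07 ± 0.16 and Igkj1 -0.05 ± 0.16. Igkj5 was at 48.07 CPM in labelled knockout library 3 and at 24.04 to 35.84 CPM in the other 7. Of 9 lambda light chain genes tested 0 passed, 8 had negative values and the median was -0.05, with Iglv1 at -0.13 ± 0.14 and Iglv2 at -0.12 ± 0.15. Without labelled knockout library 2 the split was 7 positive and 2 negative, and without wild type library 3 it was 6 and 3. With any other library left out most values stayed negative. One lambda J gene, Iglj2, had no count in any library. Its annotated span lies inside that of Iglc2 on the same strand, and how this overlap affected its count was not tested.

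The surrogate light chain, which pairs with the heavy chain before a light chain is made, had negative values in 4 of 4 genes, under all scalings tried, with a median of -0.79, and 0 passed. At an unadjusted p under 0.05 there were 3, against the 12.6% of all genes. That count was 0 without labelled knockout library 1, 3 or 4 or wild type library 2, and 1 without wild type library 1 or 4. For Igll1 the means were 163 ± 55.4 (wild type) and 86.5 ± 51.2 CPM (labelled knockout), a log2 fold change of -0.91 ± 0.40, and Vpreb1 had -0.86 ± 0.38 (SE; adjusted p = 0.393 for both, edgeR). Of 14 recombinase and end joining genes 0 passed and 12 had negative values, 13 with upper quartile factors, with a median of -0.16. Polm, an end joining polymerase, had 0.83 ± 0.20, and Hmgb1, a cofactor of RAG, had -0.43 ± 0.16.

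Of 26 transcription factors and other genes tied to kappa locus opening 0 passed, 19 had positive values, 18 with upper quartile factors, and the median was 0.24. Ebf1, a factor of B lineage commitment, had 0.40 ± 0.13 and Foxo1, an activator of the RAG genes, 0.46 ± 0.15. The octamer list held Pou2f1 and Pou2f2, which bind the octamer motif of V promoters, and Pou2af1. It had 3 positive values of 3, or 2 with upper quartile factors, and 0 passed. The median was 0.31, with Pou2f1 at 0.31 ± 0.14, Pou2f2 at 0.40 ± 0.21 and Pou2af1 at 0.06 ± 0.08. Without wild type library 4, 5 genes of these lists passed at an adjusted p of 0.0493 (edgeR), all with higher values in labelled knockout: Polm, Stat5b, Tcf3, Irf8 and Spi1. Over all 19506 genes tested without it 363 passed, 358 higher and 5 lower. None of the 100 segments did.

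The stage named in the labels was set against marker genes. Kit and Flt3, which mark early progenitors and pro-B cells, were at 0.701 to 3.20 and 0.848 to 2.33 CPM, while Dntt and Igll1 reached 119 and 206 CPM. The mature B cell gene Ms4a1 was at 596 to 838 CPM and Igkc at 2734 to 3935 CPM. Thus Kit, a defining marker of the labelled stage, was at most 3.20 CPM in any of the 8 libraries, while Igkc was at 2734 CPM or more in all 8. Of the 7 plasma cell markers, Tnfrsf17 was below 1 CPM in every library, Jchain ran from 0 to 7.21 CPM, Mzb1 from 12.3 to 21.9, Sdc1 from 21.2 to 106, Xbp1 from 13.4 to 102 and Slamf7 from 300.5 to 399.2 CPM. Prdm1 ran from 5.02 to 15.35 CPM. Of the 6 plasma cell markers tested, 3 had positive and 3 negative values. Mzb1 and Slamf7 had log2 fold changes of -0.47 ± 0.14 and -0.22 ± 0.08 (SE; adjusted p = 0.391 for both, edgeR), and Jchain had -0.23 ± 1.17. On the positive side Xbp1 had 0.68 ± 0.53, Sdc1 0.65 ± 0.41 and Prdm1 0.535 ± 0.324. The 7 summed to 446.4 to 563.8 CPM in wild type and 447.4 to 538.1 CPM in labelled knockout. The 4 erythroid genes summed to 1496 to 4428 CPM in wild type and 135.6 to 1170 CPM in labelled knockout, 4 of 4 with lower values there. The 4 natural killer genes summed to 17.98 to 29.44 and 6.19 to 17.56 CPM, and the 4 monocyte genes to 30.08 to 47.08 and 13.34 to 29.09 CPM. The sums of these 3 lists did not overlap between the groups, while the 5 neutrophil genes, at 131.8 to 280.2 and 46.3 to 241.8 CPM, did. Erythroid, natural killer and monocyte genes past the adjusted p numbered 0 (edgeR). The part of these cell types in the kappa V levels was not tested.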

How the data were processed

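The authors deposited a table of fragment counts per gene, with no normalization. Per the file headers, featureCounts 2.0.1 counted fragments over exons of GENCODE M25, and counted every alignment of a fragment that aligned in several places. No strand option is recorded there, so antisense transcription could not be told apart. The submitters' processing notes name STAR 2.7.7a, GATK 4.1.9.0 and mm10, with no role for GATK. The exon length of each gene (unit: other), per the file headers, gave CPM per kb.

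Names, types and sequences came from GENCODE M21 on GRCm38, the build called mm10. There 55227 gene identifiers had a name and 260 had none, and all 100 segments had the same start and end. The table had 0 columns of other samples. Within each group, libraries of a pair differed by a chi-square per degree of freedom of 25.2 or more, so none was a copy of another in its group. Pairs across the groups were not part of this check.

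All genes passing filterByExpr were fitted with genotype as the only term (edgeR 4.0.16, glmQLFit robust, glmQLFTest, TMM, two-sided, R 4.3.3), after a check on simulated data. The members and lists were chosen with earlier results of these data known. The named segments were the 10 with the highest mean CPM, those past the test, the 5 with the lowest unadjusted p on either side, the 2 nearest to and 2 farthest from the J segments, those nearest the count threshold, the highest in each library and the 5 with the largest ratio of highest library to median. All kappa J segments were named, and in each list of related genes the 2 with the smallest unadjusted p. Marker genes were named for the stage or cell type they define, after their values were seen. Totals and shares over the segments have no test. Alternatives were DESeq2 1.42.0, limma 3.58.1 (voom with quality weights), other scalings and count filters, a replicate block, leaving out each library, and other choices of members. Recombination signals, promoters and proteins were not analysed here.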

Additional observations from a re-analysis of the deposited data

Results flagged for a closer look

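In 146 groups of 4 libraries the gap of the highest or lowest library to its neighbour was compared with Dixon's 95% critical value for 4 values. The groups covered the segments named in the text, Il2ra, Igkc, the J segments, and totals and shares. Other genes screened were Iglv1, Iglv2, Igll1, Vpreb1, Polm, Hmgb1, Ebf1, Foxo1, Pou2f1 and Pou2f2. The remaining genes named in the text were not screened. Among these was Spi1, at 27.42, 18.27, 32.92 and 112.9 CPM in wild type. The comparison flags about 1 group in 20 by chance where groups are chosen without regard to their values, and 10 were found. Some groups were chosen by their values. Igkv1-132 and Igkv20-101-2 were among the segments named for a high ratio of highest library to median, and Igkv6-29 was singled out by its shares. The number found therefore cannot be set against that rate. Igkv1-132 had a low wild type library at 2.116 CPM beside 2.532, 2.557 and 2.611, and a high labelled knockout library 3 at 4.568 CPM beside 2.516, 2.731 and 2.523. Igkv2-137 had a low labelled knockout library 4 at 0.775 CPM beside 2.083, 1.98 and 2.104. Igkv20-101-2 was high in labelled knockout library 3, at 0.9617 CPM beside 0.3505, 0.3849 and 0.3785. Igkv4-71 was high in the same library, at 3.647 CPM beside 3.031, 3.006 and 3.028. Igkj5 was high there too, at 48.07 CPM beside 27.92, 28.87 and 28.68. Igkv6-29 took 1.102% of the kappa V counts in labelled knockout library 1, beside 0.75%, 0.7535% and 0.7102% in the others. Family 3 took 7.219% in wild type library 4, beside 8.364%, 8.537% and 8.465%. The 25 segments farthest from the J segments took 30.96% in labelled knockout library 2, beside 29.64%, 29.53% and 29.69%. Among the other genes Pou2f2 was at 124.5 CPM in labelled knockout library 3, beside 71.02, 70.29 and 74.64 CPM. Labelled knockout library 3 was thus the one apart in 5 of the 10, which include Igkv1-132 and Igkv20-101-2.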

How the results depend on the processing

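No segment passed the test under any of the 16 alternatives, with a smallest adjusted p from 0.292 to 0.985. With the replicate block 0 segments and 0 genes were called. Genes with an unadjusted p under 0.05 numbered 3057 with the block and 2388 without it (edgeR). Same-numbered libraries deviated from their group means together with r of -0.163, 0.574, 0.267 and 0.05 over 10218 genes. Wild type libraries 2 and 3 matched their same-numbered library best, and wild type libraries 1 and 4 did not. Whether the replicate numbers pair the libraries cannot be decided from these values. Leaving out 1 library gave 0 to 363 genes called, 363 without wild type library 4 alone (smallest adjusted p 0.0493). The log2 fold change of Il2ra ran from -0.27 to 0.01 and turned positive (0.01) without wild type library 2. That of Igkc was 0.01 with no count filter, and with 1 library left out it ran from -0.10 to 0.08, turning positive 4 times (0.01, 0.08, 0.01 and 0.01).

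For wild type and labelled knockout in turn, the 25 segments nearest to the J segments held 32.23% and 32.84% with a count minimum of 50, and the nearest 50 segments 51.11% and 51.7%. Without the 6 segments that have a copy at 98% identity or more, the 10 strongest held 35.59% and 36.3% and the plus-strand segments 43.13% and 43.66%. With counts divided by exon length the 10 strongest held 33.07% in labelled knockout. Totals and shares otherwise moved by less than 1 SD, and with 1 library left out the totals ran from 1256 to 1412 and from 1279 to 1394 unscaled CPM. Depth limits the 8 segments under 50 counts in 4 libraries, and Igkv8-26 had no value with that minimum. The causes were not tested.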
